A study of Sus scrofa and Bos taurus with 31 samples.

Results

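The genes of lung surfactant and of the alveolar lining described here, SFTPA1, SFTPB, SFTPC, SFTPD, ABCA3, NKX2-1, AGER, HOPX and AQP5, were taken by name from the RefSeq annotation of the pig assembly Sscrofa11.1, 9 of its 20674 protein-coding genes. Each gene was read with 10 kb on either side, called its window here. Chromatin accessibility was measured by ATAC-seq (a transposase inserts sequencing adapters where DNA is free of nucleosomes) on nuclei that had been cryopreserved. The 8 tissues were lung, adipose, cerebellum, cerebral cortex, hypothalamus, liver, skeletal muscle and spleen, each from the same 2 untreated animals, P348 and P350, which were castrated male Yorkshire littermates of 6 months. This gave 16 libraries, 2 for lung and 14 for the other tissues, each with its own list of peaks (stretches with more reads than the DNA around them).

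Lung surfactant is a film of lipid and protein that lowers surface tension in the alveoli. It is made by alveolar type 2 cells, which store it in lamellar bodies, while flat alveolar type 1 cells form most of the surface for gas exchange. SFTPB and SFTPC are small hydrophobic proteins of the film, SFTPA1 and SFTPD are collectins of innate defence, and ABCA3 moves lipid into lamellar bodies. NKX2-1 is the transcription factor that activates surfactant genes, and it also acts in the thyroid and in the developing hypothalamus. AGER, HOPX and the water channel AQP5 are known as markers of alveolar type 1 cells. Whole tissue was used, so fewer cells of a type and less accessibility per cell cannot be told apart.

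The stretches that carried a peak in both lung libraries and in no other library lay at SFTPC, SFTPD and HOPX. The sequences of the SFTPD region at 18.9 kb and of both HOPX regions, with the promoter of SFTPB for its peak in lung and the promoter of AQP5 as a contrast, are printed here from the reference assembly. Promoters are the 250 bases before the first transcription start site (TSS), and regions are the middle 300 bases. All are read 5′ to 3′ on the strand of the gene. Capitals mark matches on either strand to CACTNNAG (an NKX2-1 type motif) or CATTCC (TEAD type). A C/EBP type motif, TTGCNNAA, and a FOX type motif, TGTTTAC, were also searched.
SFTPB promoter, chr3:59101690-59101939, plus strand: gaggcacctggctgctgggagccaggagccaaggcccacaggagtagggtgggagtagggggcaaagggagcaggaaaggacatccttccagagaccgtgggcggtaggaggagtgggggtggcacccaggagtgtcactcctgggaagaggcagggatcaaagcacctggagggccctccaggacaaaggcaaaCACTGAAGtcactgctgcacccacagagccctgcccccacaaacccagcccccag
SFTPD region 18.9 kb after the TSS, chr14:82070181-82070480, plus strand: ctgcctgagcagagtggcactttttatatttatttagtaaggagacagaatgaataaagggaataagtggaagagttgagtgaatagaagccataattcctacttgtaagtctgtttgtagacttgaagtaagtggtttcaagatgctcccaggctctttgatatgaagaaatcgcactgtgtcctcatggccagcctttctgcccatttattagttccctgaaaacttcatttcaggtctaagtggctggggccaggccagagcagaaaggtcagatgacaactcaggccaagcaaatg
HOPX region 2.9 kb after the TSS, chr8:55898605-55898904, minus strand: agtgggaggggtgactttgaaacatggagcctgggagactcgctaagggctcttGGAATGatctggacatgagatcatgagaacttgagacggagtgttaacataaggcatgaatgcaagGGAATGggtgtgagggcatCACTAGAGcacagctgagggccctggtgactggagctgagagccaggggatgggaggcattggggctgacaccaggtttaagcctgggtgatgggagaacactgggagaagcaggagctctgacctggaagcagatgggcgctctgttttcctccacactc
HOPX region 5.1 kb after the TSS, chr8:55896417-55896716, minus strand: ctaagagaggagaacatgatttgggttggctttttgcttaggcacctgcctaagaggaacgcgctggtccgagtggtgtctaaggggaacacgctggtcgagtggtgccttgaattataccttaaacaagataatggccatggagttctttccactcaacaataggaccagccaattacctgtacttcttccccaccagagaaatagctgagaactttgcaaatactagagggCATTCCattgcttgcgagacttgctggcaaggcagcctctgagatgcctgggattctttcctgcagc
AQP5 promoter, chr5:15876277-15876526, plus strand: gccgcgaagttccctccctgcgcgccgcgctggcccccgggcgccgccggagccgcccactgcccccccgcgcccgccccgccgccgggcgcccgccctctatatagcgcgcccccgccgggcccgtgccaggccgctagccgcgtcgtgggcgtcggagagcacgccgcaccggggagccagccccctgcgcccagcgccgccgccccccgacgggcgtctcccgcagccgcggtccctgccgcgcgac

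The SFTPB promoter held CACTGAAG, which begins 55 bases before the TSS. The promoters of ABCA3 and HOPX held the NKX2-1 type match CACTTCAG, so 3 of the 8 promoters read held this motif. The TEAD type motif was found in 2 of the 8, those of AGER and HOPX, and the C/EBP type in 1, that of SFTPD. Of the 4 regions limited to lung that do not cover a TSS, the HOPX region at 2.9 kb held the NKX2-1 type match CACTAGAG and 2 TEAD type matches. The HOPX region at 5.1 kb held 1 TEAD type match, and both SFTPD regions held none of the motifs. Of 20664 promoters of the same length, 9.56% held the NKX2-1 type motif, 8.35% the C/EBP type, 10.4% the TEAD type and 2.32% the FOX type. Regions of 300 bases are longer than these promoters and were read against regions. Of 119618 regions with a peak in both lung libraries, 16.4% held the NKX2-1 type motif, 11.5% the C/EBP type, 15.5% the TEAD type and 3.51% the FOX type. Among the 4111 of them with no peak in another library the shares were 19.5%, 16.8%, 21.4% and 7.66%. None of the 8 promoters held the FOX type motif in these windows. A match is a stretch of letters only and was not tested for binding. The GC content was 64% in the SFTPB promoter and 84.4% in the AQP5 promoter.

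The lists of the 2 lung libraries were among the longer, with 171981 peaks in P348 and 193317 in P350 against 99960 to 217308 over all libraries, and they covered 116.2 and 145.0 Mb. Values are therefore given as peak bases in the window per Mb of all peak bases of the library. A single peak of 500 bp is worth 3.21 to 7.80 on this scale, depending on the library. Read counts are not part of the lists, so depth per library was not used here.

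SFTPC, on chromosome 14 from 6440309 to 6443104, was the gene whose TSS separated lung from the rest. A peak overlapped its TSS in both lung libraries and in none of the 14 others. In P348 it ran from -219 to 112 bases relative to the TSS, with a fold enrichment of 2.73 over local background and a −log10 q of 3.28. The peak in P350, from the same start to 74 bases, was weaker, with a fold of 2.09 and a −log10 q of 1.53. Of the 9 genes, 7 had a peak within 2 kb of a TSS in both lung libraries, where 77.2% of all genes did. SFTPC was the only 1 of the 9 genes with such a peak in both lung libraries and no other, and 19 of all 20674 genes met the same condition (0.0919%). Allowing up to 2 other libraries added none of the 9 genes, while 0.619% of all genes qualified. With peaks limited to a q-value under 0.0001, neither SFTPC peak remained, and with lists cut to equal length the count of genes was 0.

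The whole SFTPC window did not show this contrast. It held 34.3 peak bases per Mb in lung P348 and 18.9 in lung P350, and 0 to 59.6 with a median of 17 in the 14 other libraries. The libraries overlapped: 5 of the others lay above the lower lung value and 1, skeletal muscle P350, above the higher. That library held a single peak of 4329 bases, in a region 4.7 kb after the TSS that reached the start of the neighbouring gene BMP1, a procollagen protease, and that had a peak in 15 of 16 libraries. The lung minus other difference was 0.51 ± 0.49 (SE) on the scale of log2(peak bases per Mb + 5), with an adjusted p of 0.668 by limma.

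**Figure D1:**
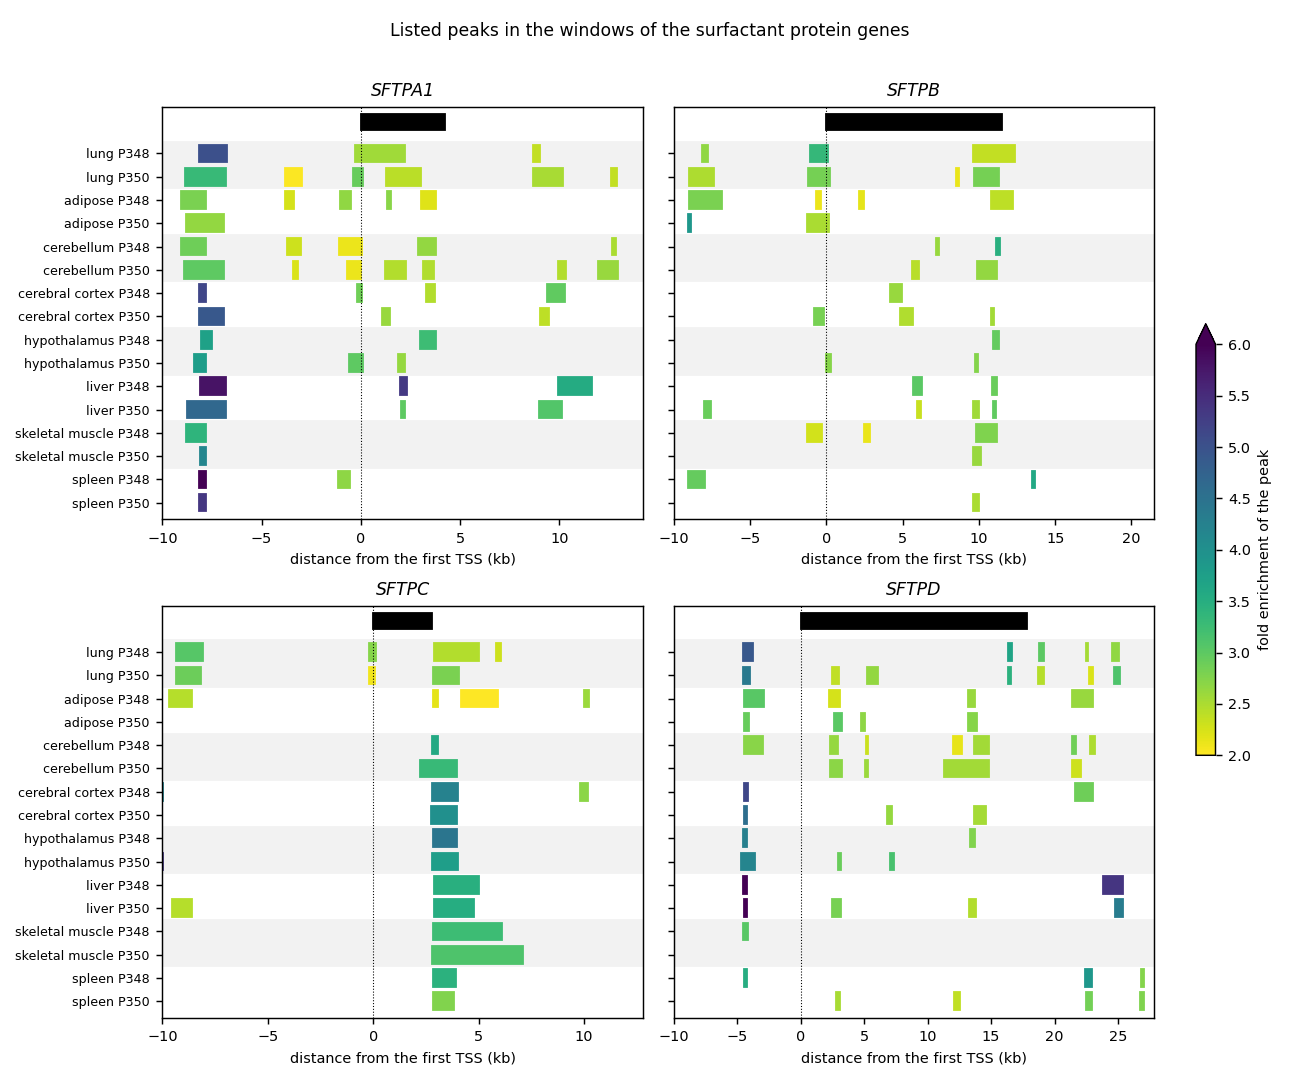
Listed peaks in the windows of the 4 surfactant protein genes, with distance from the first TSS in kb on the horizontal axis and 1 row per library; bars are peaks coloured by fold enrichment and the black bar is the gene. At SFTPC the bar at 0 is present in the 2 lung rows only, and at SFTPD the bars at 16.5 and 18.9 kb are present in the 2 lung rows only.

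SFTPB, on chromosome 3 from 59101940 to 59113442, had the largest lung minus other difference of the 9 genes. Its window held 37.6 and 33.7 peak bases per Mb in lung P348 and P350, against 2.74 to 34 with a median of 13.7 in the 14 others. Only adipose P348, at 34, reached into the lung range, and it lay above the lower lung library by less than the value of a 500 bp peak. The tissue means were 35.6 ± 2.78 (SD, n = 2) in lung and 27.1 ± 9.83 in adipose, and the lowest was 6.17 ± 0.958 in hypothalamus. The difference was 1.23 ± 0.39 (SE), with an unadjusted p of 0.00737 and an adjusted p of 0.266 by limma over all genes, so it did not pass the threshold of 0.05.

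The SFTPB peak at the TSS reached a fold of 3.34 in lung P348 and 2.84 in lung P350. A peak within 2 kb of the TSS was also listed in both adipose libraries, cerebral cortex P350, hypothalamus P350 and skeletal muscle P348, with folds of 2.12 to 2.82. The TSS region, 59100660 to 59102242, thus had 7 libraries in all. Under a q-value limit of 0.0001, the SFTPB window held 35.9 and 41.6 peak bases per Mb in lung P348 and P350, at the TSS alone. It was listed at 0 in all 14 others. The limit left 44988 and 39921 peaks in the lung lists and 21513 and 12842 in those of adipose P348 and P350. In skeletal muscle P348 it left 79389. The part of list length in these values was not tested. SFTPB was then called in lung, 1 of the 9 genes, where 2.87% of the 18479 genes tested were called higher. It passed the filter on low values through the lung libraries alone. The 14 others, all at 0, have no spread, so the call adds nothing to the values above. The fitted difference of SFTPB against a group at 0 is set by the added constant and is not a fold. A further region 8 kb before the TSS, 59092855 to 59095115 between genes, had peaks in both lung libraries and in 4 others.

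SFTPD, on chromosome 14 from 82051400 to 82069258, had no peak within 2 kb of a TSS in any of the 16 libraries, which holds for 9.07% of all genes. This depends on the limit. The region 82053592 to 82054648 lay 2058 bases from an SFTPD TSS and had peaks in 8 libraries, lung P350 among them at a fold of 2.39. The highest folds of the window in lung, 4.92 in P348 and 4.38 in P350, lay 3.8 kb before the TSS. That region, 82046655 to 82048489, also had peaks in 11 other libraries, with a fold of 9.12 in liver P348. The peaks limited to lung lay at the other end of the gene. The region 82067742 to 82068034, 16.5 kb after the TSS in the non-coding end of the last exon, had folds of 3.67 and 3.45 with −log10 q of 6.48 and 5.32 in lung P348 and P350, and no peak in the other 14 libraries. The next region, 82070080 to 82070581, lay between genes at 18.9 kb and had folds of 3 and 2.44, again in the 2 lung libraries only. The region at 24.6 kb was shared by both lung libraries, at folds of 2.66 and 3.11, and both liver libraries, at 5.39 and 4.34.

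The SFTPD window as a whole held 18.9 and 24.1 peak bases per Mb in lung, against 0 to 37.8 with a median of 21 in the 14 others. Of those, 6 lay above both lung libraries, and the highest tissue mean was 34 ± 3.07 in cerebellum. The difference was 0.23 ± 0.26 (adjusted p = 0.723, limma).

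SFTPA1, on chromosome 14 from 82091178 to 82095393, encodes surfactant protein A, the most abundant protein of the film. Its window did not overlap that of SFTPD. It held 36.6 and 47.9 peak bases per Mb in lung. The 14 others ranged from 4.07 to 52.4 with a median of 21.7. Liver P348, liver P350 and cerebellum P350 lay above the lower lung library, and only liver P348 above the higher. Tissue means ran from 45.3 ± 10.1 in liver and 42.3 ± 8 in lung down to 7.35 ± 4.64 in skeletal muscle, and liver and lung differed by less than their spread. The lung minus other difference was 0.91 ± 0.28 (SE), with an unadjusted p of 0.00546 and an adjusted p of 0.255 by limma.

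The start of MBL1, the gene of a further collectin known from liver, lies in the SFTPA1 window. The region 82083742 to 82086729 near that start, 10.2 kb from the SFTPA1 TSS, had a peak in both lung libraries (folds of 2.36 and 2.53), both liver libraries (3.56 and 3.08), both cerebral cortex libraries and cerebellum P350. A peak within 2 kb of an SFTPA1 TSS was listed in 11 libraries, both lung libraries among them, and the region 7.9 kb before the TSS had a peak in all 16.

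ABCA3, the lipid transporter of the lamellar body, lies on chromosome 3 from 39689133 to 39732466. The gene was open at its TSS in 15 of 16 libraries, all but cerebellum P348, with folds of 2.81 to 5.68. Its window held 51.7 and 72.6 peak bases per Mb in lung, against 12.8 to 80.5 with a median of 51.4 in the others. Of the other libraries, 7 lay above the lower lung value. The difference was 0.35 ± 0.27 (adjusted p = 0.594, limma), and none of its 17 regions was limited to lung. The region with both lung libraries and fewest others, 39713865 to 39715464 within the gene, had peaks in 4 others.

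**Figure D2:**
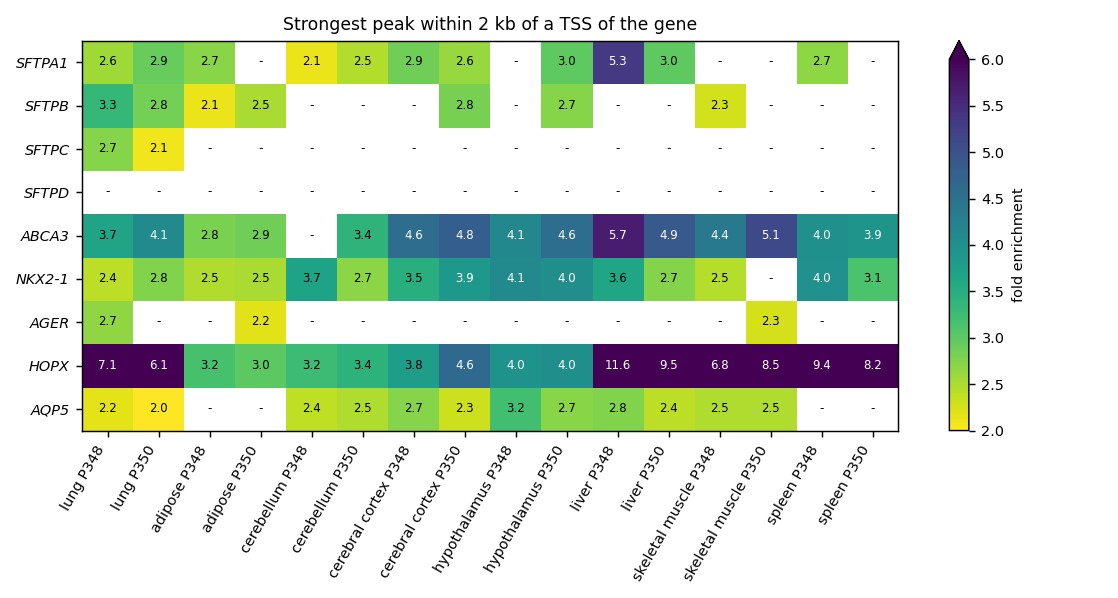
Fold enrichment of the strongest peak within 2 kb of a TSS of each gene (rows) in each library (columns, lung first); a dash marks no peak. SFTPC has a value in the 2 lung columns only, SFTPD has none, and HOPX has a value in all 16 columns.

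NKX2-1, on chromosome 7 from 63487200 to 63491580, was the gene with both lung libraries above all 14 others. Lung held 37.6 and 37.2 peak bases per Mb in its window. The others ranged from 0 in skeletal muscle P350 to 35.2 in liver P348, with a median of 24.3. Of the 9 genes only NKX2-1 met this condition, as did 79 of the 19414 genes that passed the filter on low values (0.407%). The gap to liver P348 was smaller than the value of a 500 bp peak. With all listed peaks, the lung minus other difference was 0.85 ± 0.5 (SE) with an adjusted p of 0.471 by limma.

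In hypothalamus the NKX2-1 window held 30.9 and 23.5 peak bases per Mb in P348 and P350. By tissue mean the order was lung (37.4 ± 0.265, SD, n = 2), liver (30.4 ± 6.76), hypothalamus (27.2 ± 5.24), cerebellum (25.4 ± 0.519), adipose (19.6 ± 17.6), cerebral cortex (19.2 ± 15), spleen (16.7 ± 2.51) and skeletal muscle (10.8 ± 15.2). Among liver, hypothalamus and cerebellum, each pair differed by less than the larger SD of the pair, but not by less than the SD of cerebellum. Hypothalamus exceeded the mean of the 6 tissues other than lung by 0.52 ± 0.5, with an adjusted p of 0.61, where 4.25% of all genes were called in either direction and 1.7% higher. Lung against hypothalamus gave 0.41 ± 0.66, with a 95% confidence interval of -1 to 1.81 and an adjusted p of 0.82, where 0.917% were called. Against the 6 tissues other than hypothalamus, a comparison added after the data were seen, lung gave 0.93 ± 0.5 (adjusted p = 0.429, limma).

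The 4 regions of the NKX2-1 window all had peaks in both lung libraries, and none was limited to lung or to hypothalamus. Peaks within 2 kb of a TSS were listed in 15 libraries. The strongest had folds from 2.4 in lung P348 to 4.09 in hypothalamus P348, with 2.76 in lung P350. NKX2-1 has 4 annotated TSSs. Within 500 bp of the first TSS, a limit chosen after the data were seen, peaks were listed in lung P348, lung P350 and hypothalamus P348 only. The lung peaks began at -376 and -343 bases relative to that TSS, with folds of 2.4 and 2.62, and the hypothalamus peak began 115 bases after it, with a fold of 2.44 and a −log10 q of 1.15. A peak there in both lung libraries and at most 2 others was found for 0.982% of all genes, and for SFTPC and NKX2-1 among the 9. With no other library it was found for 0.189% of all genes and for SFTPC among the 9. The region 63493097 to 63494526, 6.6 kb after the TSS between protein-coding genes, had both lung libraries and 4 others, hypothalamus P348 among them. The region 63500901 to 63502157, at 14.3 kb, had both hypothalamus libraries, both lung libraries and 7 more.

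**Figure D3:**
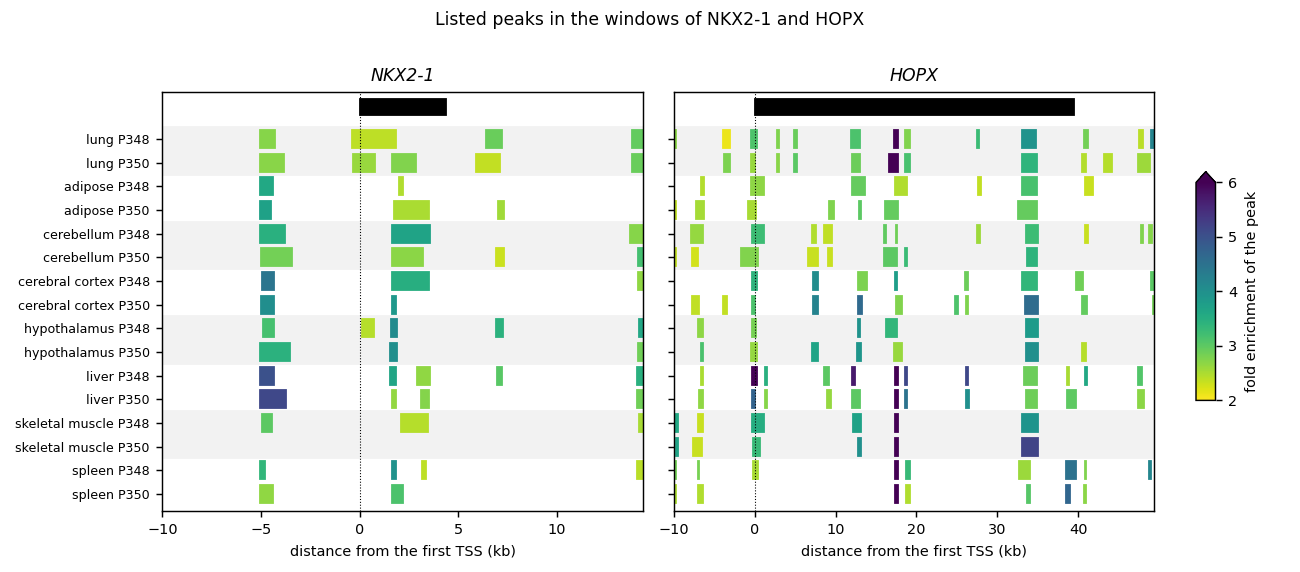
Listed peaks in the windows of NKX2-1 and HOPX, with distance from the first TSS in kb on the horizontal axis and 1 row per library; bars are peaks coloured by fold enrichment and the black bar is the gene. The bar at 0 of NKX2-1 is present in both lung rows and begins 115 bases after the TSS in hypothalamus P348, and the HOPX bars at 2.9 and 5.1 kb are present in the lung rows only.

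HOPX, a small homeodomain protein without DNA binding of its own, lies on chromosome 8 from 55862191 to 55901628. Both lung libraries carried a pair of peaks in the first intron of the longest transcript that no other library had. At 2.9 kb after the first TSS (55898599 to 55898910) the folds were 2.78 and 2.71, with −log10 q of 3.45 and 2.97. At 5.1 kb (55896364 to 55896769) they were 2.92 and 3.02, with −log10 q of 3.28 and 3.59. A region 3.5 kb before the TSS had both lung libraries and cerebral cortex P350 only.

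The HOPX start region 17.6 kb after the first TSS was open in all 16 libraries but with unequal folds. Lung had 7.13 and 6.13, liver 11.6 and 9.54, spleen 9.36 and 8.19 and skeletal muscle 6.84 and 8.49. The 3 brain tissues and adipose had 2.47 to 3.77, below all of these. Another start region, at 33.8 kb, also had a peak in all 16 libraries, with folds from 2.6 in spleen P348 to 5.2 in skeletal muscle P350. There lung had 3.94 and 3.4, and hypothalamus 3.82 and 4. Folds come from each library against its own background and were not set to a common scale between libraries. The HOPX window held 69.1 and 64.6 peak bases per Mb in lung, against 40.5 to 90.1 with a median of 65.6 in the others. The lung values lay inside the range of the others, with a difference of 0.06 ± 0.22 (adjusted p = 0.922, limma). Under a q-value limit of 0.0001 the HOPX window held 149 and 103 in lung P348 and P350 and at most 95 elsewhere. HOPX and SFTPB were then 2 of the 9 genes with both lung libraries above the 14 others, as were 1.55% of all genes tested.

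AGER, the receptor for advanced glycation end products, lies on chromosome 7 from 24218116 to 24221162 among 4 other genes whose TSSs fall in its window. A peak within 2 kb of an AGER TSS was listed in lung P348, adipose P350 and skeletal muscle P350 only. The peak of lung P348 covered the TSS (24221039 to 24221263) with a fold of 2.67, and lung P350 had none there. The 3 regions with peaks in both lung libraries had peaks in all 14 others as well. The window held 27.7 and 21 peak bases per Mb in lung, against 11.4 to 45.3 with a median of 25.9, and the difference was -0.03 ± 0.23 (adjusted p = 0.963, limma).

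AQP5, on chromosome 5 from 15876527 to 15879608, was open at its TSS in 12 libraries, which left out both adipose and both spleen libraries. The TSS folds were 2.17 and 2.01 in lung, at the low end of a range up to 3.21 in hypothalamus P348. The window held 24.7 and 26.7 peak bases per Mb in lung, against 11.2 to 49.6 with a median of 33, and 10 of the 14 other libraries lay above both lung libraries. Skeletal muscle, at 46.6 ± 4.22, was the highest, and its 2 libraries lay above all others, as for 18.1% of genes in that tissue. The lung minus other difference was -0.14 ± 0.2 (adjusted p = 0.783, limma).

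**Figure D4:**
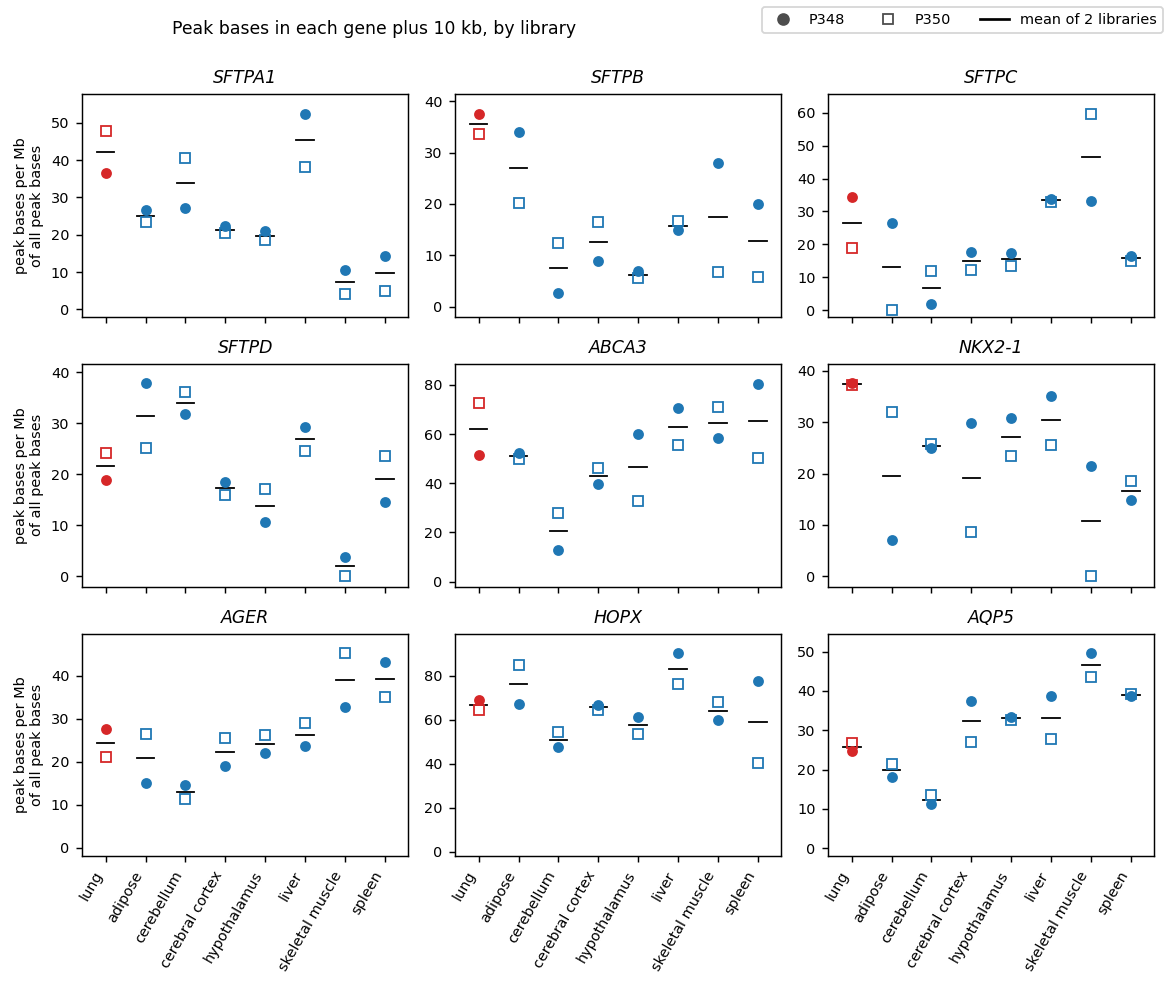
Peak bases per Mb of all peak bases in each gene plus 10 kb (vertical axis), by tissue; circles are P348, squares are P350, bars are the means of 2 libraries, and lung is in red. The lung points of NKX2-1 lie above all others, and those of AQP5 lie below 10 of the 14 others.

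Across the 9 genes, none passed an adjusted p of 0.05 for lung against the other 7 tissues, where 6 of 19414 genes did (0.0309%). At an unadjusted p under 0.05 there were 2 of the 9, SFTPA1 and SFTPB, and 2448 of all genes tested. The differences were above 0 for 7 of the 9 genes and for 46.8% of all genes, with medians of 0.35 and -0.03. The 4 surfactant proteins, ABCA3 and NKX2-1 had differences of 0.23 to 1.23, and the 3 markers of type 1 cells had -0.14 to 0.06.

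**Figure D5:**
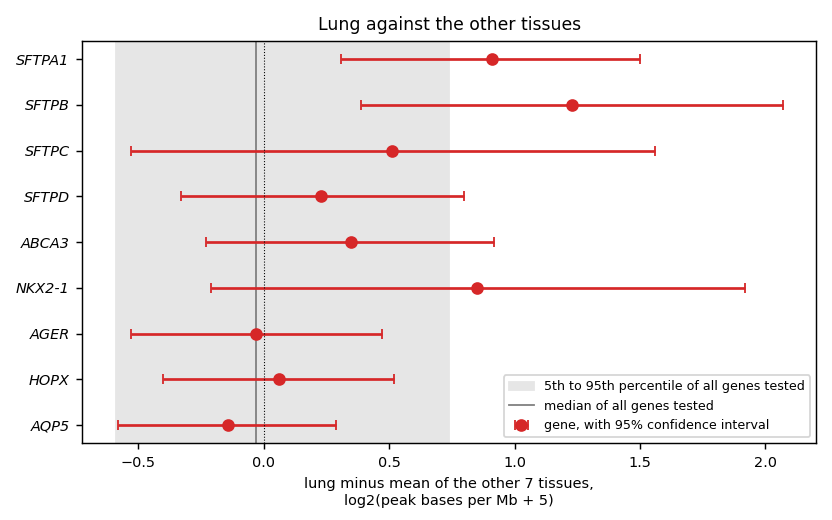
Lung minus the mean of the other 7 tissues in log2(peak bases per Mb + 5) for the 9 genes, with 95% confidence intervals; the grey band spans the 5th to 95th percentile of all genes tested and the grey line is their median of -0.03. SFTPA1, SFTPB and NKX2-1 lie to the right of the band, and the other 6 lie inside it.

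Merging the peaks of all libraries gave 84 regions in the 9 windows, and 42 of them had a peak in both lung libraries. Of these 42, 5 had no peak in another library (11.9%), beside 3.44% of 119629 such regions over the assembly. They were the SFTPC TSS, 2 at SFTPD and 2 at HOPX. With up to 2 other libraries allowed there were 8, and 12.4% over the assembly. Counted the same way for each other tissue, spleen had 2 of 21 (9.52%, beside 5.57% over the assembly), at SFTPD and AQP5, and liver had 1 of 32 (3.12%, beside 5.12%), at HOPX. The other 5 tissues had none, of 21 to 29 regions, where the share over the assembly ran from 0.579% in hypothalamus to 14.7% in cerebellum. Lung also had the most regions of the windows with a peak in both of its libraries, 50% of the 84 beside 22.4% over the assembly. Liver had 32 of the 84, beside 81622 of the 533944 regions over the assembly, and hypothalamus 24, beside 68715. A higher share in these windows, which lie at genes, than over the assembly was thus not particular to lung. Over the assembly cerebellum had the most such regions, 129650 against 119629 in lung. The tissues were not tested against each other. By position, 1 of the 5 was at the TSS of its gene, 3 lay within genes and 1 between genes. With a q-value under 0.0001 there were 2 of 12, the SFTPB TSS and the SFTPD region at 16.5 kb, beside 6.98% over the assembly.

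Other genes of the same cell types were read from lists. Of 16 genes of type 2 cells and surfactant handling, 15 were in the annotation, and 12 of these had a difference above 0, with a median of 0.27. None passed the adjusted threshold of limma for lung against the other 7 tissues, and 3 had an unadjusted p under 0.05. LAMP3, a lamellar body protein, had the highest value, 1.24 ± 0.37 (adjusted p = 0.251, limma), followed by the tight junction gene CLDN18 at 1.15 ± 0.42, SFTA2 at 0.87 ± 0.35 and the cytokine receptor gene CSF2RB at 0.77 ± 0.52. The lowest were the phosphate transporter SLC34A2 at -0.06 ± 0.35 and the lipid enzyme LPCAT1 at -0.28 ± 0.34. CLDN18 was at 1.08 ± 0.42 in hypothalamus as well, against the 6 tissues other than lung (adjusted p = 0.167, limma). For this gene lung against hypothalamus gave 0.22 ± 0.56. Against hypothalamus, lung was called higher at 1 of the 15 genes, LAMP3, at 2.74 ± 0.49 (adjusted p = 0.0248, limma), where 0.783% of all genes were called higher. LAMP3, 1 of the 15, was also called lower in hypothalamus against the 6 tissues other than lung, at -1.74 ± 0.38 (adjusted p = 0.0227, limma). In that comparison 495 of all 19414 genes were called lower. Lung against the 6 tissues other than hypothalamus gave 0.99 ± 0.38 for LAMP3 (adjusted p = 0.298, limma). Its window held 38.5 and 31.7 peak bases per Mb in lung and 0 and 2.2 in hypothalamus, and spleen P348 was higher than lung at 71.2.

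Of 10 genes of type 1 cells, 4 had a difference above 0 for lung against the other 7 tissues, with a median of -0.14. In this comparison none passed the adjusted threshold of limma (1 at an unadjusted p under 0.05). PDPN, a membrane glycoprotein, was at 0.86 ± 0.36, GPRC5A at 0.44 ± 0.24, the basement membrane collagen COL4A3 at 0.41 ± 0.2 and EMP2 at 0.08 ± 0.24. The lowest were the growth factor VEGFA at -0.51 ± 0.32 and the small heat shock protein CRYAB at -0.38 ± 0.27. Markers of other cells of the lung gave medians of 0.42 over 7 airway genes, 0.32 over 6 endothelial genes, 0.28 over 6 macrophage and leukocyte genes and 0.01 over 5 fibroblast and smooth muscle genes. None of these passed, and their part in the values above was not tested. The 3 hypothalamus markers OTP, SIM1 and POMC were at 0.22, 0.39 and 0.35 for lung against the other 7 tissues. Their median, 0.35, was equal to that of the 9 genes. For hypothalamus against the 6 tissues other than lung their median was 0.52, and none passed in either comparison. In the latter comparison 1 of the 10 type 1 genes, TEAD1, was called lower, at -0.7 ± 0.19 (adjusted p = 0.0482, limma). There 4.25% of all genes were called in either direction, and 495 of 19414 were called lower.

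The genes most like a member in log2(peak bases per Mb + 5) over the 16 libraries, by Pearson's r and with no test, were found for 3 of the 9 genes. SFTPA1 was most like SCN10A (r = 0.893), ARHGEF5 (0.893) and HAO2 (0.883). SFTPC was most like SERPINF2 (0.919), TRAF7 (0.897) and DMAP1 (0.881). For NKX2-1 they were LOC100521410 (0.87), TCERG1L (0.841) and LOC100623541 (0.821). The libraries share 2 animals and differ in list length, and 3 chosen from 19411 or more genes are high by selection.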

How the data were processed

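Peaks of 16 pig ATAC-seq libraries (8 tissues, 2 littermates) were analysed, and 15 cattle lists were not used here. For ChIP-seq reads the methods describe Trim Galore 0.4.5, BWA 0.7.17, SAMtools 1.10 and Picard 2.18.17, the tools of the submitters' processing notes. The authors called broad peaks with MACS2 on Sscrofa11.1, at a stated q-value limit of 0.05. Their accessible regions came from both replicates pooled, but the deposited lists used here are per library. These lists also hold weaker peaks, down to a −log10 q of 1.00, and 1.54% to 16.3% of a library's peaks had a q-value above 0.05. Whether read ends were shifted, as is usual for ATAC-seq, was not stated there. The deposited score in each list is about 10 times its −log10 q. The authors' fold enrichment (the ratio to local background) and their −log10 p and −log10 q also came with each deposited peak. The fold and q-value were used to filter, rank and describe peaks.

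The RefSeq annotation is of the same assembly, and 264 of 270 sequence names in the lists were matched to it. Peak bases in each gene plus 10 kb were divided by all peak bases of the library, and 5 per Mb was added before log2. Genes with a mean under 1 per Mb were left out. Tissue means were fitted with limma 3.58.1 (R 4.3.3) with a mean-variance trend, two-sided, with Benjamini-Hochberg adjustment over all 19414 genes and a threshold of 0.05. With 2 littermates, p-values measure the spread between these samples. Peaks sharing 1 bp were merged into regions. Alternatives were other pseudocounts and windows, no filter, q-value limits of 0.05 and 0.0001, lists cut to the length of the shortest, peak numbers, and each library left out.

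The genes and lists were chosen with earlier results of these data known. The text names all 9 genes, up to 4 highest and 2 lowest genes of the type 1 and type 2 lists, the 3 genes most like SFTPA1, SFTPC and NKX2-1, and the region with both lung libraries and fewest others in each window. TEAD1, and the regions and motifs beyond this rule, were chosen after their values were seen. SFTA3 was not in the annotation. The promoter of 1 of the 9 genes is not reported here. Libraries of the same animal name come from the same animal, so names pair the samples. Deviations of same-animal libraries correlated from -0.215 to 0.159 over 28 tissue pairs (median 0.00477), and with the animal as a block the calls for lung against the other tissues went from 6 to 0.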

Additional observations from a re-analysis of the deposited data

How the results depend on the processing

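Over the alternatives, 296 of 309 values of the 9 genes kept their direction and their side of the threshold. SFTPA1 and SFTPB kept a difference above 0 in all, and SFTPD in all but 2 kb around the TSS, where SFTPC, SFTPD and AGER were left out by the filter on low values. SFTPB passed the threshold with a q-value under 0.0001, the only gene of the 9 to do so. It was then at 0 in every library other than lung and passed the filter through lung alone.

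For lung against the other 7 tissues, 6 genes of all were called. The number was 0 with the animal as a replicate block, a pseudocount of 1, the gene plus 50 kb or the number of peaks, 3 with a q-value under 0.05, 13 with a pseudocount of 20, 27 with 2 kb around the TSS, 31 with lists of equal length, 79 with no filter and 660 with a q-value under 0.0001, where 1 of the 9 genes was called. Without a library in turn it was 0 to 8, and none of the 9 was called. For hypothalamus against the 6 tissues other than lung, 825 genes were called, 418 with lists of equal length, 1540 with 50 kb and 145 around the TSS, and 138 (without hypothalamus P348) to 1391 (without cerebellum P348) without a library. For lung against hypothalamus, 178 genes were called, 118 with a pseudocount of 1, 970 with a q-value under 0.0001, 325 with lists of equal length, 99 with 50 kb and 107 around the TSS. Without a library the number was 3 (without lung P348 or lung P350) to 338 (without cerebellum P348). The replicate block changed no call of the 9 genes.

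Genes with both lung libraries above all others numbered 1 (NKX2-1), 2 with a q-value under 0.05 (with SFTPB), 2 with one under 0.0001 (SFTPB and HOPX), and 0 with 50 kb, around the TSS or by number of peaks. They numbered 1 to 2 without a library, 2 without adipose P348 or lung P350. The TSS peak limited to lung was found for 1 gene, SFTPC, and for 0 with lists of equal length. With a q-value under 0.0001 it was found for SFTPB in place of SFTPC. Regions limited to lung numbered 5, 2 with a q-value under 0.0001, and 5 to 11 without a library, 11 without lung P348. With lists of equal length they numbered 4, of which 1 was at SFTPC, 1 at SFTPD and 2 at HOPX. The region at SFTPC was then not that of its TSS, where no peak limited to both lung libraries remained. Lists of equal length for these regions, and leaving out libraries for the 3 counts of this paragraph, were added after the data were seen.

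Differences reversed at SFTPC (-0.94 with a q-value under 0.0001), ABCA3 (-0.18) and HOPX (-0.11) with 2 kb around the TSS, and AQP5 (0.17 with lists of equal length, 0.30 around the TSS). AGER was at 0.01 and 0.33 with q-values under 0.05 and 0.0001, 0.28 with lists of equal length, and -0.20 to 0.13 without a library. NKX2-1 in lung against hypothalamus was at -0.03 with a q-value under 0.0001 and -0.27 by number of peaks. The cause was not tested. With 2 littermates, lists without read counts and broad peaks of low fold, a missing peak is not evidence of closed chromatin.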
